A study of Mus musculus with 3 samples.

Results

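Messenger RNA of 36 genes of glucose breakdown was measured in regulatory T cells (Tregs), the Foxp3-dependent CD4 T cells that restrain immune responses. The genes encode the enzymes of glycolysis, the enzymes that direct pyruvate to lactate or to the mitochondria, those of the pentose phosphate pathway, and the hypoxia factor Hif1a. They were found by gene name in the GENCODE M21 tables, and all 36 were present among 55536 genes. The name Aldoa has a second entry with 0, 1 and 3 counts in libraries 1, 2 and 3. It was left out, so each name stands for 1 gene. The 36 genes have 291 annotated transcripts, that second entry included.

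The study holds 1 group and 3 libraries. The cells were inflammation-experienced Tregs from a male adult mouse of 6 months, of the strain Foxp3CreERT2 x Rosa26YFP, a line with tamoxifen-inducible Cre driven from the Foxp3 locus and a Rosa26 YFP reporter. All 3 are labelled as biological replicate 1, so libraries 1, 2 and 3 are named after their technical replicate numbers, and no value describes the spread between mice. No Tregs without inflammation were analysed here, and no comparison with another condition is made.

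Glycolysis turns glucose into pyruvate in a chain of enzymatic steps and yields ATP and NADH. Lactate dehydrogenase regenerates NAD+ by reducing pyruvate to lactate, while the mitochondrial pyruvate carrier and pyruvate dehydrogenase send pyruvate to the tricarboxylic acid cycle. The pentose phosphate pathway branches off at glucose 6-phosphate and makes NADPH and ribose for nucleotides. Activated and dividing T cells are known for high glycolysis, and Foxp3 is known to shift Tregs towards oxidative metabolism. Most steps can be carried out by several isoenzymes from different genes, which differ in regulation and in the tissues that use them.

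Estimated counts on genes totalled 11829501, 14136139 and 10667765 in libraries 1, 2 and 3, and the 36 genes took 0.736%, 0.669% and 0.627% of them. All 9 Treg and T cell marker genes were detected at 1 TPM or more in each library, among them Trac at 2910.0 ± 86.3 TPM and Foxp3 at 16.1 ± 1.86 TPM (SD, n = 3 libraries). The libraries differed in other cell types. Summed levels of 9 erythroid genes were 4.83, 51.5 and 287 TPM in libraries 1, 2 and 3, those of 11 macrophage and monocyte genes 11, 62.4 and 25.8 TPM, and those of 10 neutrophil genes 1.01, 16.1 and 3.45 TPM. The 9 B cell genes summed to 467, 716 and 900.4 TPM. The erythroid factor Klf1 had 0, 0 and 1 counts, and of the 6 muscle genes none reached 1 TPM in every library. The 24 proliferation genes were all detected and summed to 5758, 5243 and 3848 TPM, with 24 of 24 lowest in library 3.

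Levels are given as TPM, the deposited length-normalised unit computed from the estimated count and the effective transcript length, so they can be set beside each other between genes. Of the 36 genes, 35 were at 1 TPM or more in all 3 libraries. The mean level was 500 TPM or more for 3 genes, from 100 to 500 TPM for 9, from 10 to 100 TPM for 15 and from 1 to 10 TPM for 8. The remaining gene was Hk3, with 9, 11 and 10 counts and 0.34, 0.86 and 0.58 TPM. Of the 35 neighbour pairs in the order of mean levels, 19 had overlapping ranges over the libraries and 16 did not. Ldha and Pkm overlapped at the top, and Aldoa and Eno1 followed without overlap with each other or with Pkm.

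**Figure D1:**
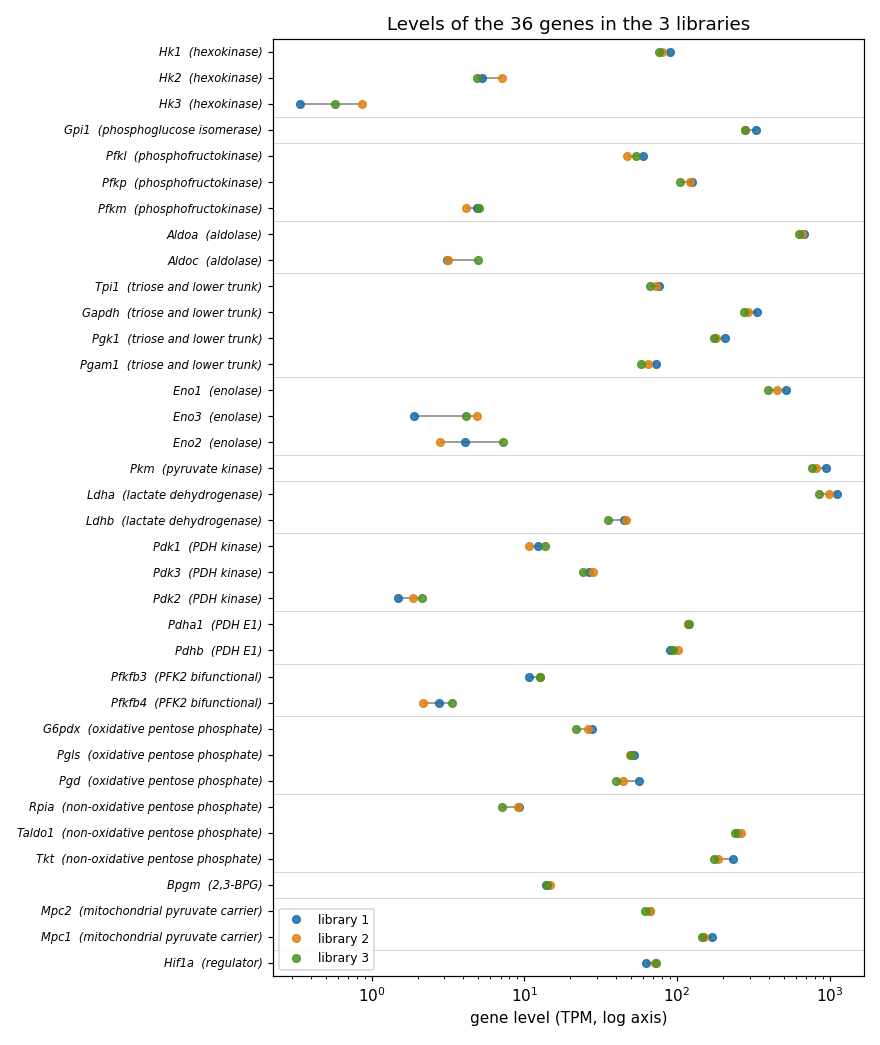
TPM of the 36 genes (log axis) in library 1 (blue), library 2 (orange) and library 3 (green), ordered along the pathway, with a grey line over each gene's range. Hexokinase, aldolase, enolase and lactate dehydrogenase each hold 1 gene far above its plotted isoenzymes (Eno1b, a near-copy of Eno1, is not plotted). Ldha, Pkm and Aldoa are the genes with a mean of 500 TPM or more.

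Summed over the isoenzymes of a step, levels from hexokinase to pyruvate kinase differed by over 10-fold, lowest at Pgam1 and highest at pyruvate kinase, and lactate dehydrogenase stood higher still. Hexokinases, which trap glucose in the cell as glucose 6-phosphate, summed to 88.9 ± 7.31 TPM (SD, n = 3 libraries, as for all levels below). Phosphofructokinases, which catalyse the committed step, summed to 176 ± 14.1 TPM. Aldolases summed to 657 ± 25 TPM, the 3 enolases to 464 ± 58.9 TPM, pyruvate kinase stood at 841 ± 88.9 TPM and lactate dehydrogenases summed to 1027 ± 138 TPM. Between aldolase and enolase, the single-gene steps were lower. Tpi1 (triose phosphate isomerase) had 71.9 ± 4.53 TPM, Gapdh (glyceraldehyde 3-phosphate dehydrogenase) 301 ± 31.1 TPM, Pgk1 (phosphoglycerate kinase, the first ATP-making step) 188 ± 18.1 TPM and Pgam1 (phosphoglycerate mutase) 65.2 ± 7.68 TPM. Gpi1, which turns glucose 6-phosphate into fructose 6-phosphate, had 296 ± 29.3 TPM. These levels sum over all transcripts of a gene. On protein-coding transcripts alone, Gapdh had 185 ± 29 TPM, near Pgk1 at 187 ± 18.5 TPM, and Gpi1 had 84.2 ± 13.3 TPM. On that scale Pgam1 had 64.8 ± 7.92 TPM and Pkm 826 ± 88.2 TPM.

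Hexokinase RNA was mostly Hk1, the widely expressed form bound to mitochondria. Hk1 (chromosome 10, positions 62268855 to 62379908 of mm10, minus strand) had 90.8, 80.1 and 76.4 TPM in libraries 1, 2 and 3, against 5.31, 7.19 and 4.93 TPM for Hk2, the insulin- and hypoxia-responsive form. Every Hk1 value lay above every Hk2 value. The difference of log2(TPM + 0.1) was 3.82 ± 0.32 (SD, n = 3), a 14.1-fold ratio, with an exact two-sided sign-flip p = 0.25. That is the smallest p that 3 libraries allow, so none of the 17 pairs compared here could pass a threshold of 0.05, and the smallest adjusted p over the 17 pairs was 0.266. In 16 of the 17 pairs the sign was the same in all 3 libraries. Hk1 took 92.8% ± 1.7 of the hexokinase TPM, Hk2 6.56% ± 1.41 and Hk3, a form known from myeloid cells, 0.679% ± 0.313. Hk3 had 9, 11 and 10 counts in libraries 1, 2 and 3, while the macrophage and monocyte genes summed to 151, 914 and 278 counts. Hkdc1 had at most 1 count in any library.

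Phosphofructokinase was led by Pfkp. Pfkl, the liver-type subunit, had 60.3, 46.9 and 53.9 TPM in libraries 1, 2 and 3, against 126, 122 and 105 TPM for Pfkp, the platelet-type subunit. All Pfkl values were below all Pfkp values, and the log2 difference of Pfkl minus Pfkp was -1.14 ± 0.219. Pfkm, the muscle-type subunit, had 4.89, 4.16 and 5.06 TPM, 2.68% ± 0.362 of the step. Pfkfb3 and Pfkfb4 make and break down fructose 2,6-bisphosphate, the activator of phosphofructokinase. Pfkfb3 had 10.8, 12.6 and 12.6 TPM, against 2.78, 2.17 and 3.38 TPM for Pfkfb4, a log2 difference of 2.09 ± 0.339. Of their paralogs, Pfkfb1 had 7.75 ± 0.904 TPM and Pfkfb2 1.23 ± 0.611 TPM, so Pfkfb1 stood above Pfkfb4 in every library.

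Among the genes compared, aldolase was nearly all of 1 form and enolase was Eno1 with its near-copy Eno1b. Aldoa, the muscle and general aldolase, had 679, 656 and 627 TPM, against 3.12, 3.17 and 4.98 TPM for Aldoc, the brain form, and it took 99.4% ± 0.184 of the step. Eno1, the general enolase, had 520.2, 450.3 and 397 TPM. Eno3, the muscle form, had 1.89, 4.91 and 4.14 TPM, and Eno2, the neuronal form, had 4.12, 2.8 and 7.28 TPM. Eno1 took 98.1% ± 0.842 of these 3. With Eno1b counted, Eno1 took 62.5% ± 0.943, and Eno1 and Eno1b together 98.8% ± 0.553. Eno3 minus Eno2 was the pair without a fixed sign, with log2 differences of -1.08, 0.79 and -0.80 in libraries 1, 2 and 3. Eno4 had at most 1 count in any library.

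Pyruvate kinase M comes in a pair of forms that differ by 1 alternative exon, M1 in adult muscle and brain and M2 in dividing cells. The exons are both 167 bases long, sit as number 9 in their transcripts and lie side by side on the plus strand of chromosome 9 (GENCODE M21, mm10), the M2 exon at chr9:59675568-59675734 and the M1 exon at chr9:59675029-59675195. They are printed because reads over them tell the forms apart: they differ at 64 positions (capitals mark the differing bases), an identity of 61.7%.
Pkm M2 exon: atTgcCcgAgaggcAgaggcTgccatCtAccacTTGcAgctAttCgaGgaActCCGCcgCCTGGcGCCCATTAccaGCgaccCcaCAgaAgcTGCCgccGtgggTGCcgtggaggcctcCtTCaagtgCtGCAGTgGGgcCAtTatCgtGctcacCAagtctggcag
Pkm M1 exon: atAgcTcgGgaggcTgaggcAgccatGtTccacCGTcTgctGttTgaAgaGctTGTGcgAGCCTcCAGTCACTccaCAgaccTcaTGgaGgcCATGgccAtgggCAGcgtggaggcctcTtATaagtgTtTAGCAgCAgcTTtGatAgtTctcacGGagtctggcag

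The M2 transcript (Pkm-201) had 696, 588 and 575 TPM, against 58.2, 43.9 and 38.2 TPM for the M1 transcript (Pkm-202). M2 was above M1 in every library, with a ratio of 11.9, 13.4 and 15.1 in libraries 1, 2 and 3. The log2(TPM + 0.1) difference was 3.74 ± 0.166 (SD, n = 3; exact two-sided sign-flip p = 0.25, the smallest possible), and M2 made up 93% ± 0.748 of both forms. The M1 count was uncertain. It was estimated at 1050.2, 955 and 632 reads with posterior SDs of 141, 134 and 108 reads, since most of its sequence is shared with M2. A further 20.9% ± 1.41 of Pkm TPM lay on transcripts with neither exon, chiefly Pkm-211, a coding fragment of 582 bases with 146 TPM that took 4.63% of the gene's counts. Pklr, the liver and red cell pyruvate kinase, had 1 count in each library.

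Lactate dehydrogenase was mostly the A subunit. Ldha (chromosome 7, positions 46841475 to 46855627, plus strand), which favours lactate formation, had 1113, 993 and 847 TPM from 14612, 15910 and 10459 counts. Ldhb, known as the heart subunit, had 45, 46.7 and 35.3 TPM from 467, 602 and 351 counts. The groups of values did not overlap, and Ldha minus Ldhb was 4.54 ± 0.114 on the log2 scale, a 23.2-fold ratio. Ldha took 95.9% ± 0.319 of the step. Ldhc, the testis form, had 6, 2 and 3 counts.

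Pyruvate entry to the mitochondria was measured by its carrier, its dehydrogenase and the kinases that inhibit the dehydrogenase. Mpc2 had 66.8, 66.5 and 62.1 TPM, against 169, 149.8 and 147 TPM for Mpc1, and the proteins are known to form the carrier together. The log2 difference of Mpc2 minus Mpc1 was -1.25 ± 0.0834, and it turned to 1.90 in the whole-number tables, where Mpc2 had 207, 237 and 211 counts and Mpc1 had 49, 71 and 57. The pyruvate dehydrogenase E1 subunits were closer to each other. Pdha1 had 118, 118 and 120.4 TPM, against 89.9, 101 and 94.1 TPM for Pdhb, a log2 difference of 0.33 ± 0.09. The other subunits and the phosphatases of the complex, 6 genes, were all detected, with Dld at 75.6 ± 6.72 TPM, Pdhx at 16.1 ± 1.27 TPM, Dlat at 15.4 ± 1.37 TPM and the phosphatase Pdp2 at 12.9 ± 1.8 TPM.

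Among the pyruvate dehydrogenase kinases, Pdk3 was highest. Pdk1, a known hypoxia-induced form, had 12.4, 10.7 and 13.7 TPM, against 26.4, 28.2 and 24.2 TPM for Pdk3 and 1.48, 1.87 and 2.15 TPM for Pdk2. The values of the 3 kinases did not overlap. Pdk1 minus Pdk3 was -1.10 ± 0.283 on the log2 scale, and Pdk1 minus Pdk2 was 2.69 ± 0.269. When protein-coding transcripts alone were counted, Pdk1 minus Pdk3 was -3.68 and Pdk1 minus Pdk2 was 0.08. Pdk4, the kinase induced by fasting, had 0, 0 and 1 counts.

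In the pentose phosphate pathway a pair of non-oxidative enzymes had the highest gene levels. Transaldolase (Taldo1) had 250.4, 262 and 239 TPM and transketolase (Tkt) 233, 187 and 176 TPM, while ribose 5-phosphate isomerase (Rpia) had 9.28, 9.12 and 7.14 TPM. The oxidative enzymes were G6pdx, which catalyses the entry step and makes the first NADPH, at 27.7, 26.2 and 21.8 TPM, Pgls at 52.1, 49 and 49.8 TPM and Pgd, which makes the other NADPH, at 56.4, 44.5 and 39.7 TPM. The entry enzyme G6pdx was the lowest of these 3 in every library. On protein-coding transcripts alone, Tkt had 27.2 ± 6.07 TPM, below Pgls at 49.8 ± 1.62 TPM and Pgd at 43 ± 9.81 TPM, and Taldo1 had 248 ± 12.2 TPM. The transketolase-like gene Tktl1 had 3.93 ± 0.49 TPM and H6pd, the enzyme of the endoplasmic reticulum, 4.01 ± 0.095 TPM. Bpgm, which makes 2,3-bisphosphoglycerate in red cells, had 13.9, 14.7 and 14.1 TPM. Its counts were 215, 308 and 213 and did not pass the test between libraries described below (adjusted p = 0.112). The erythroid genes summed to 28, 325 and 1320 counts, and the part of red cells in the Bpgm counts was not tested. Hif1a, the oxygen-regulated subunit of the hypoxia factor, had 63, 72.3 and 73.4 TPM, and its partner Arnt 25.3 ± 0.89 TPM.

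**Figure D2:**
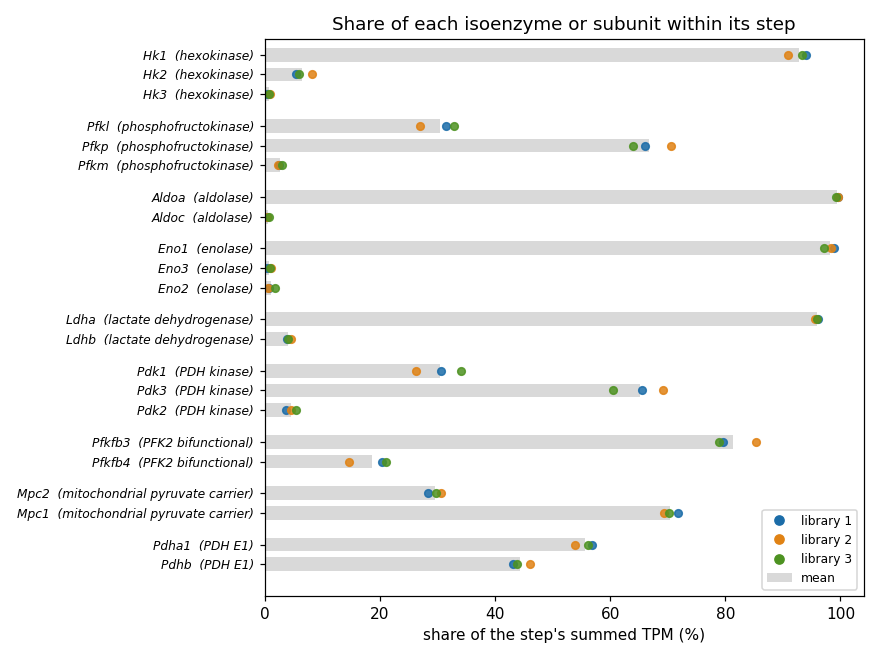
Share of each isoenzyme or subunit in the summed TPM of its step (%), as the mean of 3 libraries (grey bars) and each library (points). Hk1, Aldoa, Eno1 and Ldha take over 90% of their plotted steps in every library (Eno1 62.5% on average once Eno1b, not plotted, is counted), while phosphofructokinase and the pyruvate dehydrogenase kinases are divided among genes.

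The promoters of the 36 genes were read for the core of the hypoxia response element, ACGTG or GCGTG, on both strands, in windows from 250 bases before to 50 bases after a start site (RefSeq, GRCm38.p6). All 36 genes matched a promoter, and the one nearest the start of the leading coding transcript was used. ACGTG was present in 15 of 36 (41.7%), against 25.5% of 11953 promoters of tested genes and 19.6% of all 32851 promoters. GCGTG was present in 23 of 36 (63.9%), against 49.7% of promoters of tested genes. Either was present in 31 of 36 (86.1%), against 61.4% of promoters of tested genes and 43.8% of all. CACGTG, which holds ACGTG on both strands and so counts as 2 matches, was present in 4 of 36 (11.1%), against 9.85%. No test was made of these shares, and a match shows letters and no binding. The background shares count every promoter of a gene, while each of the 36 genes has 1 chosen promoter, so the selection is unlike. The chosen start lay up to 1297 bases (Eno2) from the leading coding start. The first printed pair is that with 23.2-fold different levels at the lactate step, the other that of the hexokinases; capitals mark each match, and matches on the opposite strand read CACGT or CACGC. The Ldha promoter (chr7:46845554-46845853, plus strand) held 5 ACGTG and 2 GCGTG, that of Ldhb (chr6:142507908-142508207, minus strand) 0 and 1, that of Hk1 (chr10:62340372-62340671, minus strand) 2 and 3, and that of Hk2 (chr6:82774405-82774704, minus strand) 2 and 0.
Ldha promoter: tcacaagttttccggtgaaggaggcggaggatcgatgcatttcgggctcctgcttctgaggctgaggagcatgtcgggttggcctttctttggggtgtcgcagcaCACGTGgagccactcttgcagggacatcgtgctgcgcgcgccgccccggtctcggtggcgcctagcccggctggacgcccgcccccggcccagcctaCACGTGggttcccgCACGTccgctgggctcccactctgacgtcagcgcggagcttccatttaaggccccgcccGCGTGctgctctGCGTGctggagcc
Ldhb promoter: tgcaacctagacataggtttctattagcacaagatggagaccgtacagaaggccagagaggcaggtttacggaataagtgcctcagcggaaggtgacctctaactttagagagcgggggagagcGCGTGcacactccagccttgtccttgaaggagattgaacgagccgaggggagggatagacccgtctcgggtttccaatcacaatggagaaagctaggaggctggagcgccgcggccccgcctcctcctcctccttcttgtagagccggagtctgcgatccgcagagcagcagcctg
Hk1 promoter: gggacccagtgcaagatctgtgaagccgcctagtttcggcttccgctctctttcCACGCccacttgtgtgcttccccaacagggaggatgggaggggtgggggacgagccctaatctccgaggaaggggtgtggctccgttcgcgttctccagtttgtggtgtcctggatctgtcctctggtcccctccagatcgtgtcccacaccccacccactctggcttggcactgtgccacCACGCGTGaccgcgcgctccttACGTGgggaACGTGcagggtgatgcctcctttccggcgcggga
Hk2 promoter: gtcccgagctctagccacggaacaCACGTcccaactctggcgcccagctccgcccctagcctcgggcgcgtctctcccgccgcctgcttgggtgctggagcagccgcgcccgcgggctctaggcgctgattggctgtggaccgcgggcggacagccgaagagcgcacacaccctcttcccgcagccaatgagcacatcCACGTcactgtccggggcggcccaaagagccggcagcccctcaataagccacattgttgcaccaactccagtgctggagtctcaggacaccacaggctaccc

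Of 22 hypoxia genes outside glycolysis, 16 were detected, with a median level of 8.15 TPM. Bnip3l, a mitophagy receptor, had 338 ± 18.2 TPM, Higd1a 127 ± 8.42 TPM and Ero1l 46.1 ± 0.529 TPM, while Vegfa was at 0 in all 3 libraries, where 0 counts allow up to 3 counts, or 0.254, 0.212 and 0.281 CPM (counts relative to the library total) in libraries 1, 2 and 3. In a list of side branches of glucose and pyruvate use, 12 of 16 genes were detected. The highest were Rpe at 57.7 ± 2.95 TPM and Me2, the mitochondrial malic enzyme, at 57.5 ± 11.2 TPM. Rpe is an epimerase of the pentose phosphate pathway that was placed in this list. Fructose 1,6-bisphosphatase genes were at 0 (Fbp1) or at most 1 count (Fbp2). Of 19 paralogs of the 36 genes, 5 were detected. The highest by far was Eno1b, at 296, 274 and 223 TPM, a near-copy of Eno1.

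Sequence shared with other genes can decide which gene a read is given to. For each gene, the share of 31-base stretches of its coding transcripts that also occur in transcripts of another gene was counted. It was 68.3% for Pgk1, 62.6% for Gapdh, 53.5% for Eno1, 42.1% for Pgam1 and 41.9% for Pdhb, and it was 0 for 9 genes, among them Tkt, Pgd, Eno3 and Pdk3. Gapdh had 97 genes elsewhere with 10% or more of its 31-base stretches, 93 of them pseudogenes, whose levels summed to 60.6, 60 and 56.3 TPM. Eno1b held 52.3% of the stretches of Eno1. The 4 copies of Eno1, the pseudogenes Gm4735 and Gm5855 among them, took 38.1% ± 0.486 of the summed TPM of Eno1 and its copies. Pgk1 had 208, 180.5 and 175 TPM, and its near-identical pseudogenes alternated between libraries: Pgk1-rs7 had 28.3, 0 and 5.2 TPM and Gm5537 had 0, 15.2 and 13.9 TPM. Mpc1-ps, which holds 16.7% of the stretches of Mpc1, had 67.4, 58.3 and 86.5 TPM. The levels of these genes and copies are therefore uncertain. With the copies added, a setting chosen after the data were seen, 16 of the 17 pairs kept 1 sign in all libraries, and Eno1 minus Eno2 was 7.35 in place of 6.66.

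The 2 gene tables of each library gave these genes very different counts. The whole-number table, on GENCODE M4, held 24, 29 and 30 counts for Pgk1, against 3352, 3499 and 2567 estimated counts. Pgam1 had 1, 2 and 4 whole-number counts, against 1140, 1218 and 821 estimated counts, and Gapdh had 54, 48 and 32, against 2345, 2607 and 1778. Ldha had 1282, 1305 and 1218, against 14612, 15910 and 10459. Over the 3 libraries, the whole-number counts were a median 39.9% of the estimated ones for the 36 genes and 40.7% for 11374 genes. Among the 36 the ratio was a median 48.1% for the 20 genes with under 10% of shared stretches, 29.9% for the 11 genes with 10 to 40% and 1.99% for the 5 genes with 40% or more. Over all genes the ratio was a median 10.9% for the 337 genes with a mean of 5000 estimated counts or more, and 36.7% to 44.2% in the classes of lower counts. Among the 36 genes Spearman's rho of the ratio was -0.66 with shared sequence and -0.47 with the mean count, a description over genes measured in the same libraries. The part of each was not tested.

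**Figure D3:**
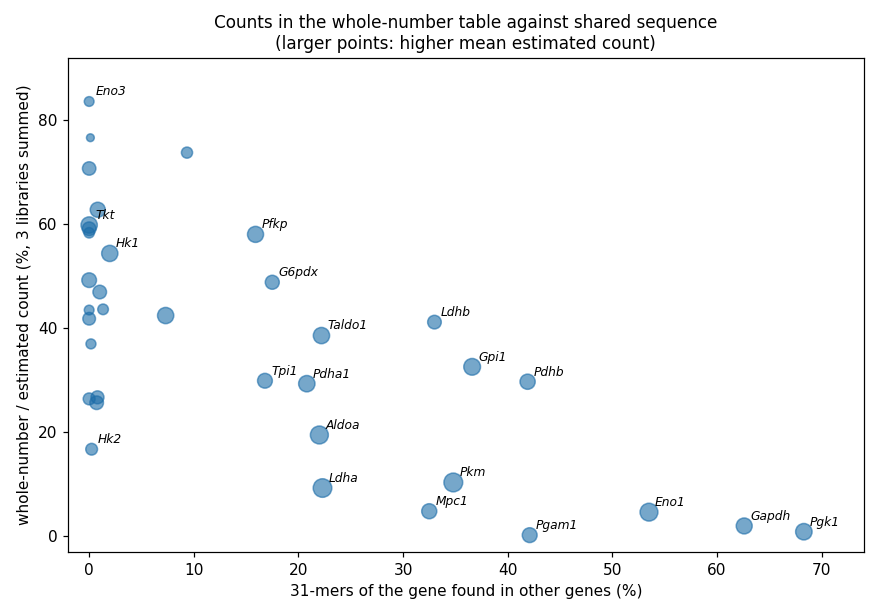
Whole-number counts as a percent of estimated counts (3 libraries summed) against the percent of a gene's 31-base stretches found in other genes, 1 point per gene, larger for higher counts. Pgk1, Gapdh, Eno1 and Pgam1 lie under 5% at the right, but Ldha, Pkm and Mpc1 are also low at 22.3%, 34.8% and 32.5% of shared stretches.

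Some genes were read mainly from transcripts that are not annotated as coding. Across the 36 genes, a median 91.9% of TPM and 97.1% of counts lay on protein-coding transcripts, and 28 genes were led by one. In 7 genes under 50% of TPM was protein-coding, and in 4 of them this also held for counts: Tkt, Pdk1, Eno2 and Pfkfb4. These 4 were named after their values were seen. For Tkt, protein-coding transcripts had 13.6% ± 0.934 of TPM and 16.4% of counts. Its leading transcript was Tkt-209, a processed transcript of 1962 bases with 135, 110.5 and 99.2 TPM, which is 57.8% of the gene's TPM, and Tkt-205, of the nonsense-mediated decay class, had 25.6%. For Pdk1, coding transcripts had 15.1% ± 5.38 of TPM and the processed transcript Pdk1-208 had 5.7, 5.67 and 6.49 TPM. Eno2 had 54.9% ± 15.5 of TPM on retained-intron transcripts.

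Gpi1, Hk2 and Mpc2 were under 50% by TPM only. Gpi1 had 28.5% ± 4.31 of TPM but 55.3% of counts on coding transcripts, with 63.2% ± 2.19 of TPM in the nonsense-mediated decay class. Hk2-202, a processed transcript of 594 bases, had 3.14, 4.15 and 3.05 TPM from 15.5, 24.7 and 13.8 reads, while the coding Hk2-201 of 5513 bases had 2.17, 2.63 and 1.88 TPM from 108, 157 and 85.2 reads. Short transcripts gain TPM per read, so the share by counts is given beside the share by TPM. By coding transcripts alone, Hk1 minus Hk2 was 5.08 on the log2 scale, in place of 3.82. The abundant genes Ldha (Ldha-202, 92.6% ± 1.27), Eno1 (Eno1-202, 92% ± 2.31) and Aldoa (Aldoa-201, 85.4% ± 1.39) each had 1 dominant coding transcript.

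**Figure D4:**
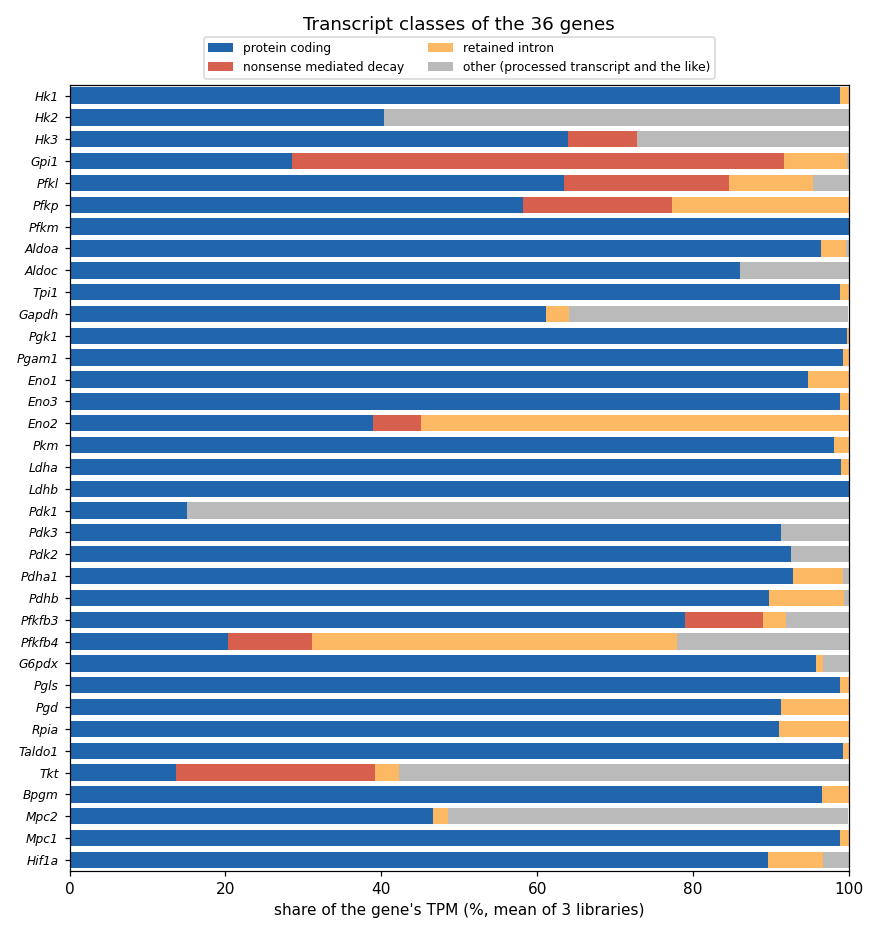
Share of each gene's TPM (%, mean of 3 libraries) on transcripts annotated as protein coding (blue), nonsense-mediated decay (red), retained intron (orange) or other (grey). Tkt, Pdk1, Pfkfb4, Gpi1, Eno2, Hk2 and Mpc2 have under 50% in blue.

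Between the 3 libraries, many of the 36 genes differed by more than counting noise, by small amounts. Counts were tested per gene for equal shares of the TMM-normalised libraries (Poisson chi-square, Benjamini-Hochberg adjusted over the 13970 genes that averaged at least 10 counts, all 36 among them). At an adjusted p under 0.05, 23 of 36 genes differed, against 45.7% of all tested genes. The median chi-square per degree of freedom was 10.9 for the 36 genes and 3.28 for all. Counting noise alone gives a mean of about 1 and a median below that. The highest library was under 2-fold above the lowest in all 23, and under 1.5-fold above it in 21. The test detects smaller changes in abundant genes. Among the 20 genes at 50 TPM or more 16 differed, against 65.5% of all tested genes at that level. Since the libraries are technical replicates of 1 sample by the labels, these p-values describe these libraries only.

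The direction was mostly a low value in library 3. Of the 36 genes, 24 were lowest there, against 37.3% of all tested genes, and 18 of 36 both differed and were lowest there, against 19.5% of all tested genes. Among the 20 genes at 50 TPM or more 17 were lowest in library 3, against 57.3% of tested genes at that level. Of these 20, 13 both differed and were lowest there, against 1207 of 2908 tested genes at that level. The median log2 deviation from a gene's mean was 0.05, 0.04 and -0.15 in libraries 1, 2 and 3 for the 36 genes and -0.05 in library 3 for all tested genes at 50 TPM or more. For the 24 proliferation genes, all of which differed, it was 0.23, 0.13 and -0.43. The summed erythroid and B cell genes were highest in library 3, as given above: 5 of 5 tested erythroid and 6 of 9 tested B cell genes differed and were highest there. The part of proliferating or other cells in the glycolytic differences was not tested, and in bulk RNA fewer cells of a type and less RNA per cell cannot be told apart.

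By role, 13 of 17 genes of the trunk from hexokinase to pyruvate kinase differed (76.5%) and 11 of these were lowest in library 3. Over all tested genes 45.7% differed, and at 50 TPM or more 65.5% did. Pkm had the largest count and normalised values 1.25-fold apart (adjusted p = 5.78e-81), with 940.5, 815 and 769 TPM in libraries 1, 2 and 3. Eno1 was 1.35-fold apart (adjusted p = 8.02e-72) and Gpi1 1.26-fold (adjusted p = 5.16e-21), both highest in library 1 and lowest in library 3. In the whole-number tables Eno1 did not pass (adjusted p = 0.72). Both lactate dehydrogenase genes differed, Ldha by 1.3-fold (adjusted p = 2.70e-95) and Ldhb by 1.37-fold (adjusted p = 0.000103). In the whole-number tables Pkm and Ldha passed (adjusted p = 6.75e-06 and 0.00522), but in another direction. Pkm had 1678, 1640 and 1579 whole-number counts and Ldha 1282, 1305 and 1218. Relative to each library's summed whole-number counts, both were lowest in library 2 and highest in library 3. Of the 6 pentose phosphate genes counted here, 4 differed (66.7%). All 6 were lowest in library 3, against 37.3% of all tested genes. The largest ratio was that of Pgd, 1.53-fold (adjusted p = 5.99e-16), and the smallest that of Pgls, 1.05-fold (adjusted p = 0.852). Rpe, an epimerase of this pathway counted with the side branches, was lowest in library 1 and did not pass (1.09-fold, adjusted p = 0.115). Without library 3, 10 of the 23 genes no longer passed, against 3 without library 1 and 4 without library 2. Aldoa, Gapdh, Tpi1, Pgam1, Pfkp, Ldhb and G6pdx were among the 10. The matching losses over all tested genes are not given, so whether these genes differ from the rest in this was not tested. Leaving out library 1 ended the call of Hk1 (adjusted p = 0.686, against 2.06e-29 with all 3), whose counts were 3089, 2798 and 2174.

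Of the 7 genes of pyruvate entry, 3 differed (42.9%, against 45.7% of all tested genes) and 1 of these was lowest in library 3. Pdk1 was highest in library 3, with 278, 294 and 337 counts in libraries 1, 2 and 3 (1.44-fold, adjusted p = 6.88e-05), while Pdk3 was lowest there, with 489, 578 and 375 counts (1.23-fold, adjusted p = 0.0105). Pdk1 alone among the 23 was highest in library 3. In the whole-number tables neither kinase passed (adjusted p = 0.908 for Pdk1 and 0.285 for Pdk3), and without library 3 neither did. Pdha1, at 2883, 3336 and 2641 counts, was 1.02-fold apart after normalisation (adjusted p = 0.808). Pdhb and Hif1a were lowest in library 1 (1.15-fold, adjusted p = 0.00215, and 1.17-fold, adjusted p = 6.48e-07). Pdhb did not pass in the whole-number tables (adjusted p = 0.133) or without library 2 (adjusted p = 0.602), nor Hif1a without library 1 (adjusted p = 0.0827). Neither Mpc1 nor Mpc2 passed the test (adjusted p = 0.222 and 0.425). Around the pathway, 3 of 6 other genes of the dehydrogenase complex and its phosphatases differed, 7 of 13 tested side-branch genes and 5 of 17 tested hypoxia genes, of which 0, 4 and 1 differed and were lowest in library 3. Over all tested genes 45.7% differed, and 19.5% differed and were lowest in library 3, so the shares of 50% and 53.8% in the first pair of lists lie near the background, and that of the hypoxia genes was 29.4%.

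**Figure D5:**
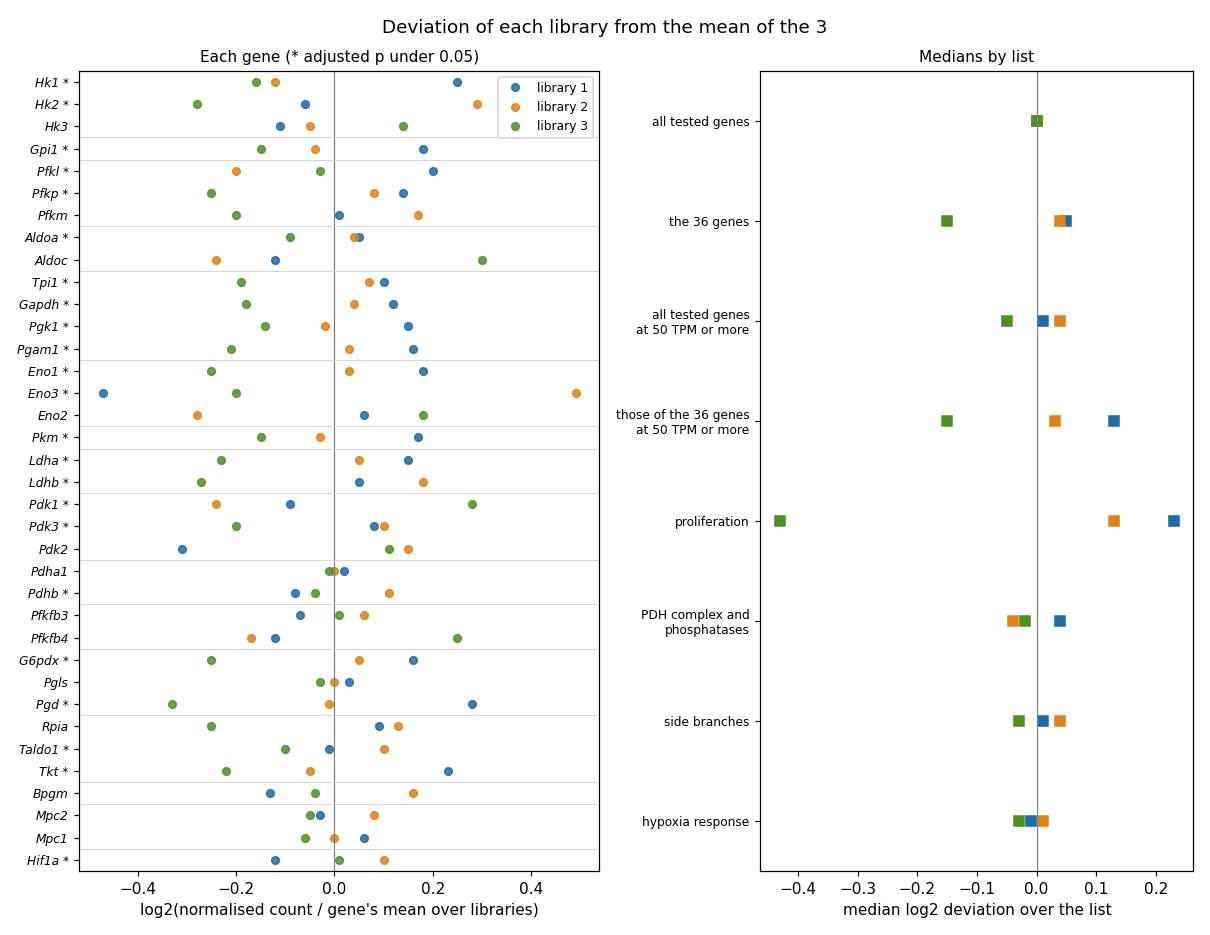
Left, log2 of the normalised count over the gene's mean for each of the 36 genes and libraries 1 (blue), 2 (orange) and 3 (green); asterisks mark an adjusted p under 0.05. Right, medians over gene lists: library 3 lies at -0.15 for the 36 genes and -0.43 for the proliferation genes, and near 0 for the hypoxia genes, the side branches and the dehydrogenase complex.

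The low values of library 3 differed between the gene tables. In the whole-number tables, 15 of 34 tested genes were lowest in library 3 (44.1%), against 36.9% of 10013 tested genes, and 13 of 34 differed, against 21.5%. For the 21 genes whose whole-number counts were 30% or more of the estimated ones, a limit chosen after the data were seen, 12 of 21 were lowest in library 3 by estimated counts and 11 of 20 tested by whole-number counts. For the 15 genes under 30%, it was 12 of 15 by estimated counts and 4 of 14 by whole-number counts. These 15 include Ldha, Pkm, Eno1, Aldoa, Gapdh, Pgk1 and Pgam1, so the direction of the most abundant of the 36 genes rests on the estimated counts.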

How the data were processed

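Polyadenylated RNA of 1 biological replicate was sequenced in 3 libraries, sheared to fragments per the labels. Per the file headers, the first deposited table of each library holds each gene's estimated count, in which a model shared out multi-mapped reads, and its TPM, in RSEM's layout, on mm10 and GENCODE M21 per the deposited description, with a posterior SD of each count, a deposited signal in reads. The second holds the same per transcript, with the percent of gene TPM per transcript as deposited. The third holds deposited whole-number counts on GENCODE M4, in a genome-aligned table. The aligner, tool versions, strand setting and duplicate handling were not given in the sources used here.

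Members and lists were chosen with earlier results of these data known. Estimated counts were rounded. With 1 group, no test between groups was possible. Homogeneity over libraries was tested per gene by a Poisson chi-square with TMM-adjusted sizes (edgeR 4.0.16, R 4.3.3; factors 0.994, 0.976 and 1.03), which takes every read as an independent molecule and so overcalls where PCR copied reads. The test was tried on simulated data first. Pairs were compared as log2(TPM + 0.1) within each library, a scale that understates differences of low genes, with an exact sign-flip permutation test. Percents, counts and levels are means ± SD over libraries. Floors at 0 cover counting error only. The tables sum to 2988262, 3386154 and 2734873 whole-number counts in libraries 1, 2 and 3.

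Named are all 36 genes, up to 4 genes of each list by level, further list genes chosen after their values were seen (those at or near 0, Arnt, Foxp3 and Pfkfb2), and copies with 10% or more of a member's 31-base stretches and at least 1 TPM, the 10% being set after the data were seen. The annotation held 141 of 143 list genes. Alternatives were DESeq2 1.42.0 size factors, total counts, no filter, posterior SD as extra variance, whole-number counts, each library left out, other pseudocounts, CPM, coding transcripts only and posterior mean TPM. Sequences come from GENCODE M21 transcripts and RefSeq promoters (GRCm38.p6). Overlapping genes and, as strand is not stated, antisense genes can share counts.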

Additional observations from a re-analysis of the deposited data

How the results depend on the processing

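With 23 of 36 genes differing between libraries, the count was 22 to 23 under DESeq2 size factors, total counts, no filter and added posterior variance. It was 13 in the whole-number tables, and 13 to 20 with 1 library left out, the lowest without library 3. The calls of 6 genes held under every alternative run for them, by an adjusted p under 0.05 and whatever the direction. Ldha and Pkm are among these 6, and relative to the summed whole-number counts both were lowest in library 2. For the 24 genes lowest in library 3, the count was 19 by total counts, 15 in the whole-number tables, 25 of 35 and 29 of 36 without library 2 and without library 1, where 2 libraries remain, and, among genes that kept 30% of counts or more (chosen after seeing the data), 12 by estimated and 11 by whole-number counts. For the other pathway genes, 17 of 43 differed, 15 to 17 under the scaling and filter alternatives, 4 of 38 in the whole-number tables and 7 to 11 with 1 library left out. Over all tested genes, 45.7% differed by estimated counts and 21.5% by whole-number counts. Such shares are not given here for the settings with 1 library left out. The M2 minus M1 difference of 3.74 ranged over 3.66 to 3.82. Of the 17 pairs, 16 or 17 kept 1 sign under each alternative, the added copies included. The mean of Eno3 minus Eno2 turned from -0.37 to 0.06 in whole-number CPM and 1.00 by coding transcripts, and that of Mpc2 minus Mpc1 turned from -1.25 to 1.90 in whole-number CPM. The cause was not tested. No paired analysis between groups was possible because there is 1 group. The 17 pairs of genes were compared within each library. Depth limits Hk3, Eno3, Pdk2, Pfkfb4 and Aldoc, which have few counts, and 1 biological replicate leaves the spread between mice unmeasured.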
